A study of Mus musculus with 18 samples.

Results

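Iron and heme handling was followed through 10 genes, which were found in the tables by gene symbol. The 10 genes matched 1 feature each of the 24732 features listed. They are the iron exporter gene Slc40a1, the phagosomal metal transporter gene Slc11a1, the transferrin receptor gene Tfrc and the ferritin subunit genes Fth1 and Ftl1. The others are the heme oxygenase gene Hmox1, the biliverdin reductase genes Blvra and Blvrb, and the iron regulatory protein genes Ireb2 and Aco1. RNA was measured by sequencing in macrophages of C57BL/6 mice that were either wild type (Bhlhe40+/+Bhlhe41+/+, here WT) or lacked both transcription factors (Bhlhe40-/-Bhlhe41-/-, here DKO). There were 6 groups of 2 libraries, biological replicates by the series design, and ages, pooling of animals and the chimera hosts are not given in the sources used here. Alveolar macrophages, the resident macrophages of the lung air spaces, were sorted at steady state as CD11c+ SiglecF+ CD11b low cells. In mixed bone marrow chimeras the same cells were sorted as CD45.1+ CD45.2- for WT and as CD45.1- CD45.2+ for DKO. In the chimeras the genotypes therefore also differed in their CD45 marker. Peritoneal macrophages were gated from lavage by CD11b+, F4/80+ and Tim4+ staining and intermediate MHCII. Both genes were deleted in all cells of the DKO donors as far as the genotype labels tell, and no promoter driving a Cre is named.

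Macrophages take in iron bound to transferrin through the transferrin receptor, and heme from red cells that they engulf. Heme oxygenase 1, the product of Hmox1, opens the heme ring and frees its iron, and the biliverdin reductase of Blvra turns the resulting biliverdin into bilirubin. The related enzyme of Blvrb reduces other biliverdin isomers and flavin. Freed iron is stored in ferritin, a shell of H chains (Fth1), which oxidise iron, and L chains (Ftl1), which help to mineralise it, or it leaves the cell through ferroportin (Slc40a1), the known cellular exporter of iron. The iron regulatory proteins encoded by Aco1 and Ireb2 bind RNA hairpins when iron is scarce, which blocks translation of ferritin and ferroportin and stabilises Tfrc RNA. Much of this control acts on translation, so that RNA levels do not give protein levels. The transporter encoded by Slc11a1, also called Nramp1, moves metal ions out of the phagosome, and C57BL/6 mice are known to carry a loss-of-function allele of it.

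Values are deposited TPM, in which reads are divided by transcript length and each library is scaled to the same total. Depth recovered from the tables was 6594712 reads in DKO chimera replicate 1 and from 16508468 to 29338242 reads in the other 11 libraries. Bhlhe40 TPM was lower in both DKO libraries than in both WT libraries of every population, while Bhlhe41 TPM was higher in the DKO libraries of every population. The gene-level value can include reads outside the deleted part and so does not check the Bhlhe41 label. All 10 alveolar identity genes and all 8 peritoneal identity genes with a feature reached 1 TPM in some library. The alveolar genes summed to between 13368 and 26397 TPM in alveolar libraries and to between 970 and 1434 TPM in peritoneal ones. Most of the alveolar sum was Chil3, at 8448 to 17359 TPM. Nearly all of the peritoneal sum was Marco, at 960 to 1424 TPM there, against 391 and 368 TPM in WT steady-state alveolar libraries. Changes were estimated as differences of log2(TPM + 1), each with its standard error (SE), in 1 limma fit over the 12 libraries. Adjusted p is Benjamini-Hochberg adjusted over 12303 features, with a threshold of 0.05. In steady-state alveolar cells the median feature had a DKO over WT log2 fold change of -0.22, and rescaling the libraries by the median of ratios brought it to 0.00. A small decrease there is therefore read beside its rescaled value.

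Levels in WT macrophages separated the tissues, and 9 of the 10 genes passed the test between steady-state alveolar and peritoneal cells, 7 higher and 2 lower in alveolar cells, where 68.0% of all features passed (41.3% higher and 26.7% lower). Tissue and library series cannot be told apart in this comparison. Ferritin was the most abundant product. Fth1 had 11900 and 12022 TPM in the WT alveolar libraries against 2188 and 1923 TPM in the WT peritoneal ones, a log2 fold change of 2.54 ± 0.11 (SE; adjusted p = 1.21e-08 by limma). Ftl1 had 4927 and 4886 TPM against 2713 and 2783 TPM, a log2 fold change of 0.84 ± 0.07 (adjusted p = 2.61e-06 by limma). Both ferritin genes were thus higher in each alveolar library, and the H chain gene by more. The Fth1 to Ftl1 ratio of TPM was 2.42 and 2.46 in the alveolar libraries and 0.806 and 0.691 in the peritoneal ones, so that H chain RNA exceeded L chain RNA in one tissue and not in the other.

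The transporters ran in opposite directions between the tissues. Slc11a1 had 10.1 and 9.974 TPM in WT alveolar libraries and 683.2 and 642.2 TPM in WT peritoneal ones, a log2 difference of -5.91 ± 0.32 (SE; adjusted p = 6.43e-08 by limma). Slc40a1 had 3.606 and 4.285 TPM in WT alveolar libraries, from 100 and 104 reads. In WT peritoneal libraries it had 2 reads and 1 read, or 0.04659 and 0.02925 TPM. Its share of reads in WT alveolar libraries was 96.1 times that in WT peritoneal ones. The exact 95% counting interval was 32.4 to 470 and covers counting error only. A list of lung epithelium genes summed to 163 to 206 TPM in WT alveolar and to 0.917 to 1.52 TPM in WT peritoneal libraries. The part of epithelial RNA in this tissue difference was not tested. Tfrc was low everywhere in WT cells, between 2.232 and 3.033 TPM over the 6 WT libraries, with overlapping groups.

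The heme genes were also split by tissue in WT cells. Hmox1 had 542.9 and 641 TPM in alveolar libraries and 335.5 and 307.4 TPM in peritoneal ones, a log2 fold change of 0.88 ± 0.13 (SE; adjusted p = 0.00013 by limma). Blvra, the biliverdin reductase of adult heme breakdown, had 360.6 and 354.7 against 104.1 and 108.1 TPM, a log2 fold change of 1.74 ± 0.09 (adjusted p = 4.15e-08 by limma). Blvrb, whose enzyme reduces other biliverdin isomers and flavin, went the other way, with 158.9 and 171.3 against 429.5 and 398.6 TPM and a log2 fold change of -1.32 ± 0.10 (adjusted p = 1.21e-06 by limma). The reductase genes thus had opposite tissue patterns, Blvra above Blvrb in alveolar cells and below it in peritoneal cells. Among the iron regulatory genes, Aco1 had 88.75 and 94.42 against 42.42 and 43.35 TPM, and Ireb2 17.5 and 17.96 against 11.35 and 10.93 TPM. Both were higher in alveolar cells, with log2 fold changes of 1.08 ± 0.10 for Aco1 and 0.63 ± 0.11 for Ireb2 (adjusted p = 5.95e-06 and 0.000491 by limma). Aco1 RNA was several times more abundant per length than Ireb2 RNA in every library.

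**Figure D1:**
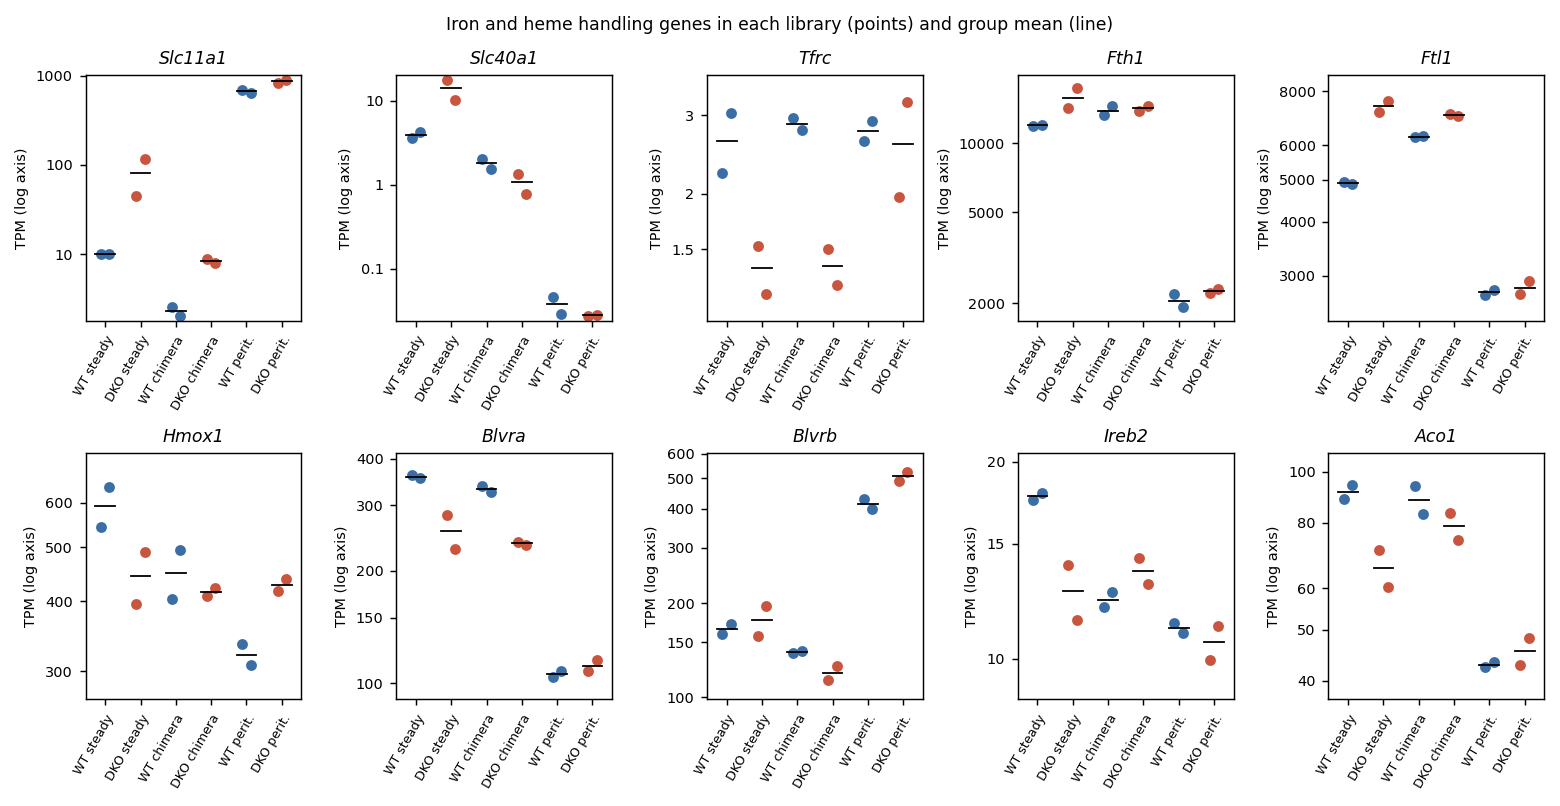
TPM of each gene on a log axis in the 12 libraries, WT in blue and DKO in red, with the group mean as a line (perit. is peritoneal). Slc11a1 and Blvrb are highest in peritoneal cells and Slc40a1, Fth1, Ftl1, Blvra and Aco1 in alveolar cells.

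Promoter windows from RefSeq on GRCm38.p6, from 250 bases before to 50 after an annotated start, were given for 8 of the 10 genes, as 11 windows of 300 bases. Slc40a1 and Hmox1 had none. The stretches below are shown because they hold the matches found, with the matched letters in capitals, each 5′ to 3′ on the gene's strand. The matches are descriptions of letters and not of binding.
Blvra: acgggaattGCTCGGTCAaggctccgc
Ftl1: gtcaacatgCTATAAaaggagcgc
Fth1: aggatcccgCTATAAgtgcggccc
Tfrc: ggggccgagCTATAAgctttgggt
The Blvra stretch lies at chr2:127070599-127070625 on the plus strand and holds, on the other strand, the antioxidant response core TGACNNNGC, 49 bases before the annotated start. That core was searched on both strands and occurred in 1 of the 11 windows and in 12.4% of 32851 RefSeq windows. The Ftl1 stretch lies at chr7:45459856-45459879 on the minus strand, the Fth1 stretch at chr19:9982662-9982685 and the Tfrc stretch at chr16:32608940-32608963, both on the plus strand. These 3 share the TATA-like letters CTATAA on the sense strand, at positions 17 (Ftl1), 26 (Fth1) and -173 (Tfrc) from the annotated start, negative being before it. The letters occurred in 3 of the 11 windows and in 4.56% of all windows. None of these positions is the usual one of a TATA box, a short way before the start. The CTATAA search was chosen after the windows were read. The E-box CACGTG, searched on both strands, occurred in 0 of the 11 windows and in 7.15% of all windows. The hairpin loop letters of the iron-responsive element, CNNNNN directly followed by CAGTGN, were searched on the sense strand and occurred in 0 of the 11 windows and in 10.4% of all windows. The element acts in RNA, and these windows reach only 50 bases past the annotated start. The search therefore could not show whether the transcripts of these genes carry it. No motif overlapped another in the stretches printed.

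In steady-state alveolar macrophages, 9 of the 10 genes differed between DKO and WT cells, 4 higher and 5 lower in DKO, where 51.5% of all features passed (12.2% higher and 39.4% lower). After rescaling, 5 genes passed as higher and 1 as lower, where 20.4% of all features passed as higher and 17.9% as lower. The genes for iron storage and for the metal transporters were higher in DKO cells, and Blvra alone passed as lower under both scalings. In the authors' deposited table, which is count-based, 4 of the 10 genes were higher and 2 (Tfrc and Aco1) lower at an adjusted p under 0.05, where 20.2% of all features with an adjusted p were higher and 17.1% lower. In bulk samples, fewer cells of a type and less RNA per cell cannot be told apart.

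Slc11a1 showed the widest change. WT libraries had 10.1 and 9.974 TPM and DKO libraries 45.29 and 117.1 TPM, from 791 and 2260 reads. Both DKO libraries lay above both WT libraries but were themselves far apart. The log2 fold change was 2.74 ± 0.32 (SE; adjusted p = 0.000107 by limma), and the authors' deposited table gave 2.70 with an adjusted p of 9.57e-10. Without DKO replicate 2 the log2 fold change was 2.07 and without DKO replicate 1 it was 3.42, and it passed under all 9 alternatives run (adjusted p from 1.82e-07 to 0.0296). DKO alveolar cells remained far below peritoneal cells in Slc11a1 TPM. Peritoneal identity genes also summed higher in DKO than in WT alveolar cells, at 215 to 223 TPM against 16.5 to 22.8 TPM, and far below the 9453 to 12779 TPM of peritoneal libraries. Nearly all of that sum was Cd93, with 18.4 and 11.1 TPM in WT and 211 and 203 TPM in DKO libraries, while Gata6 was at 0 in both DKO libraries and Alox15, Selp and F5 were at most 0.0645 TPM in them. Of the 8 peritoneal genes, 5 (Timd4, Icam2, Alox15, Naip1 and Cd93) were higher in both DKO libraries than in both WT libraries. In this way 0 were lower, where 19.2% of all features were higher and 57.2% lower. Icam2 had 3.63 and 4.63 TPM in WT and 7.74 and 7.32 TPM in DKO libraries. Naip1 had 0.727 and 0.442 TPM in WT and 3.35 and 2.61 TPM in DKO libraries. The neutrophil list, 9 of 10 genes with a feature and 3 of them reaching 1 TPM, summed to 281 to 292 TPM in DKO and 51.5 to 59 TPM in WT libraries. Most of the neutrophil sum was Csf3r and S100a8, while Cxcr2, the third of those genes, was lower in DKO (4.89 and 3.34 against 0.867 and 1.41 TPM), S100a9 was at most 0.683 TPM and Camp and Mpo were at 0 in the 4 steady-state libraries. The part of either list in the Slc11a1 result was not tested.

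Slc40a1 had 3.606 and 4.285 TPM in WT and 17.8 and 10.24 TPM in DKO steady-state libraries, from 456 and 290 reads in DKO. The groups did not overlap, and DKO replicate 1 was the highest of the 12 libraries. The log2 fold change was 1.56 ± 0.24 (SE; adjusted p = 0.000555 by limma), and the authors' deposited table gave 1.91 with an adjusted p of 6.07e-10. It passed under all 9 alternatives (adjusted p from 0.000201 to 0.0321), but the near absence of reads in peritoneal libraries adds hardly any spread to the shared SE. With only the steady-state libraries the adjusted p was 0.0321.

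Some transcripts of lung epithelium were also higher in DKO libraries at steady state. Of the 7 epithelial genes that reached 1 TPM in some library, 4 (Sftpc, Sftpb, Sftpa1 and Scgb1a1) were higher in both DKO libraries than in both WT libraries, 2 (Cdh1 and Ager) were lower and 1 overlapped, where 19.2% of all features were higher and 57.2% lower in this way. Sftpc, a surfactant protein of type II cells, had 32.9 and 40.6 TPM in WT and 64.4 and 53.2 TPM in DKO steady-state libraries. Scgb1a1, a secretory protein of club cells, had 42.2 and 79.8 TPM in WT and 106 and 109 TPM in DKO libraries. All 9 epithelial genes had a feature, and the summed level of the list overlapped between genotypes, at 163 to 206 TPM in WT and 189 to 204 TPM in DKO libraries. Cdh1, which alveolar macrophages also express, went the other way, with 75 and 69.5 TPM in WT and 12.4 and 12 TPM in DKO, as did the type I cell marker Ager, with 4.3 and 5.25 TPM in WT and 1.24 and 1.19 TPM in DKO. Krt8, Krt18 and Nkx2-1 were at most 0.471 TPM in the steady-state libraries. At steady state the WT libraries had 10.9 and 10.6 TPM of Slc40a1 per 100 TPM of Sftpc and the DKO libraries had 27.6 and 19.2, so that Slc40a1 was also higher in DKO relative to Sftpc. The feature whose group means followed Slc40a1 most closely was Cyp2f2, known as a club cell enzyme, with Pearson's r of 0.997 over 6 group means, followed by D930048N14Rik (0.995) and Hey1 (0.992). These r values describe groups that share libraries and depth. Cyp2f2 had 2.61 and 3.67 TPM in WT and 7.03 and 8.07 TPM in DKO steady-state libraries. Unlike the ratio to Sftpc, the ratio of Slc40a1 to Cyp2f2 TPM overlapped between the genotypes. The part of epithelial RNA in the Slc40a1 result was not tested.

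**Figure D2:**
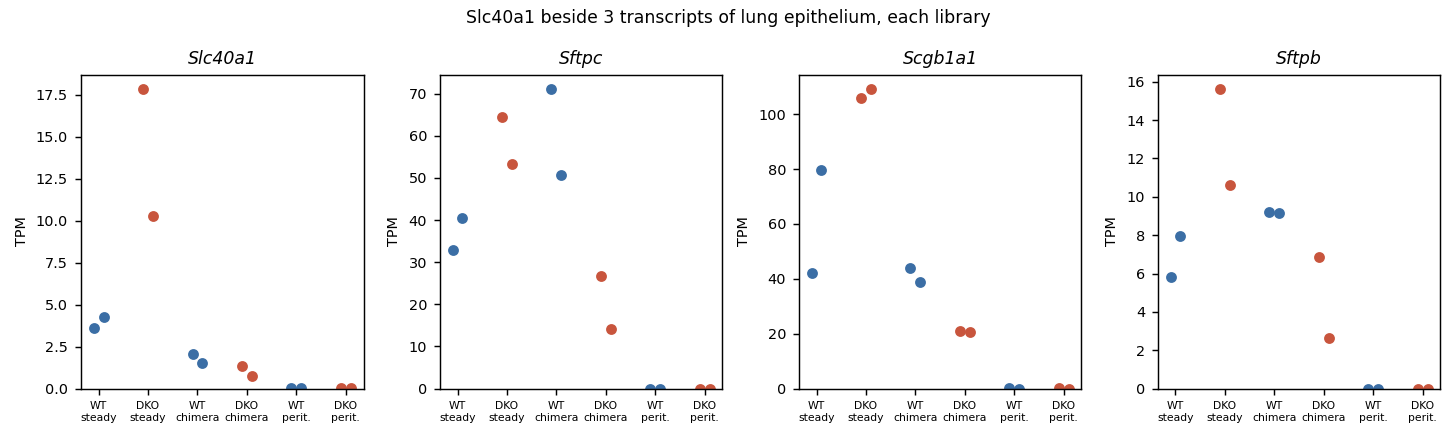
TPM of Slc40a1 and of 3 transcripts of lung epithelium in the 12 libraries, WT in blue and DKO in red, with axes from 0 (perit. is peritoneal). Sftpc and Scgb1a1 are higher in DKO at steady state and lower in DKO in the chimera, as is the direction of Slc40a1, and all 4 are near 0 in peritoneal cells.

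Ferritin RNA was higher in DKO cells at steady state. Ftl1 had 4927 and 4886 TPM in WT and 7177 and 7599 TPM in DKO libraries, without overlap, for a log2 fold change of 0.59 ± 0.07 (SE; adjusted p = 0.000148 by limma) that passed under all 9 alternatives (adjusted p from 0.000145 to 0.0252). Fth1 had 11900 and 12022 TPM in WT and 14210 and 17317 TPM in DKO libraries, for a log2 fold change of 0.39 ± 0.11 (adjusted p = 0.0142 by limma). The Fth1 groups did not overlap, but its call was lost without WT replicate 1, without WT replicate 2 or without DKO replicate 2 (adjusted p of 0.068, 0.0636 and 0.125, with 0.00486 to 0.133 over 9 alternatives). In the authors' deposited table Ftl1 had 0.84 (adjusted p = 5.4e-14) and Fth1 0.65 (adjusted p = 0.00073). The 2 ferritin genes together made up 1.68% and 1.69% of all TPM in WT and 2.14% and 2.49% in DKO libraries. The ratio of Fth1 to Ftl1 TPM went from 2.42 and 2.46 (WT) to 1.98 and 2.28 (DKO), lower in both DKO libraries. Ferritin has many processed pseudogenes, and counting could have split reads with them, so that these levels are uncertain to that extent.

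Tfrc, the uptake receptor, had 2.232 and 3.033 TPM in WT and 1.53 and 1.19 TPM in DKO steady-state libraries, from 49 to 107 reads a library. The groups did not overlap, and the log2 fold change was -0.62 ± 0.19 (SE; adjusted p = 0.0197 by limma). The call was lost without WT replicate 2 or DKO replicate 2 and after rescaling (-0.44, adjusted p = 0.0752; 0.0194 to 0.141 over 9 alternatives), and the authors' deposited table gave -0.65 with an adjusted p of 0.0428. Over the 6 group means, Cdk5 (Pearson's r of 0.987) and B4galt3 (0.980) were among the 3 features nearest to Tfrc in pattern. Those nearest to Slc11a1 were Fance (0.998), Map7 (0.996) and 2700046G09Rik (0.995).

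Of the heme genes, Blvra fell. It had 360.6 and 354.7 TPM in WT and 282.2 and 229.7 TPM in DKO libraries, without overlap, for a log2 fold change of -0.49 ± 0.09 (SE; adjusted p = 0.00153 by limma). The rescaled value was -0.23 (adjusted p = 0.0334), and all 9 alternatives passed (adjusted p from 0.000121 to 0.0474), while the authors' deposited table gave -0.23 with an adjusted p of 0.0995. Hmox1 had 542.9 and 641 TPM in WT and 396.5 and 490.2 TPM in DKO libraries, lower in both DKO libraries. Its log2 fold change of -0.42 ± 0.13 (adjusted p = 0.0187 by limma) became -0.16 after rescaling (adjusted p = 0.39), and the call was also lost without WT replicate 2 or DKO replicate 1 (0.00644 to 0.39 over 9 alternatives). Blvrb had 158.9 and 171.3 TPM in WT and 157.1 and 196 TPM in DKO libraries, with overlap, and did not pass (log2 fold change 0.09 ± 0.10, adjusted p = 0.507 by limma); rescaled, it was 0.35 with an adjusted p of 0.0424.

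The iron regulatory protein genes were lower in DKO cells on the deposited scale. Ireb2 had 17.5 and 17.96 TPM in WT and 13.9 and 11.45 TPM in DKO libraries, and Aco1 had 88.75 and 94.42 against 70.87 and 60.31 TPM. Neither pair of groups overlapped. The log2 fold changes were -0.46 ± 0.11 for Ireb2 and -0.48 ± 0.10 for Aco1 (SE; adjusted p = 0.006 and 0.00369 by limma). After rescaling they were -0.21 and -0.22 (adjusted p = 0.0799 and 0.0831), and these calls were lost (range over 9 alternatives 0.00208 to 0.0799 for Ireb2 and 0.00221 to 0.0831 for Aco1). The authors' deposited table gave -0.23 for each, with adjusted p of 0.105 for Ireb2 and 0.0335 for Aco1. With only the 4 steady-state libraries in the fit, the calls of Tfrc, Fth1, Hmox1 and Ireb2 were lost (adjusted p = 0.0566, 0.133, 0.0976 and 0.0638 by limma), and Fth1 also lost its call without the filter on low values (adjusted p = 0.0825).

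**Figure D3:**
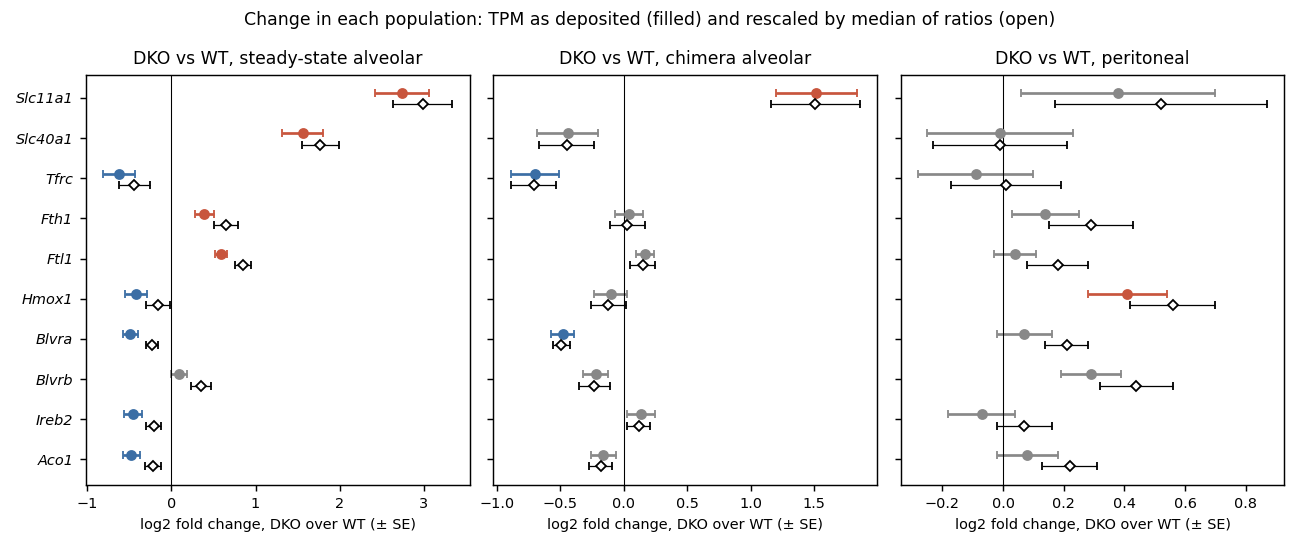
Log2 fold change of DKO over WT with its SE for the 10 genes in the 3 populations, on TPM as deposited (filled; red passed as higher, blue as lower, grey did not pass) and after rescaling by the median of ratios (open). At steady state the open points lie to the right of the filled ones, and Hmox1, Ireb2 and Aco1 come closer to 0.

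In the chimeras, whose hosts received marrow of both genotypes, 3 of the 10 genes passed, 1 higher and 2 lower in DKO, where 27.3% of all features passed (13.7% higher and 13.6% lower). The count and the directions were the same after rescaling, where 14.3% of all features were higher and 15.1% lower. Slc11a1 had 2.555 and 2.066 TPM in WT and 8.872 and 8.06 TPM in DKO libraries, from 45 reads in each WT library. The groups were far apart relative to their spread, and the log2 fold change was 1.52 ± 0.32 (SE; adjusted p = 0.00661 by limma; 0.00308 to 0.0451 over 9 alternatives, all passing). The neutrophil list summed to 133 to 142 TPM in DKO and 37.9 to 46.4 TPM in WT libraries. That increase was Csf3r alone (22.7 and 14.3 against 119 and 121 TPM), while S100a8 (21 and 21.3 against 12.6 and 19.1 TPM) and Cxcr2 (2.36 and 2.05 against 1.16 and 1.64 TPM) were lower in DKO. The peritoneal list summed to 264 to 282 against 40.2 to 54.6 TPM, most of it Cd93 (35.9 and 51.4 TPM in WT, 269 and 255 TPM in DKO). Of its 8 genes, 5 (Timd4, Icam2, Alox15, Naip1 and Cd93) were higher in both DKO libraries than in both WT libraries. In this way 1 (F5) was lower, where 31.9% of all features were higher and 30.6% lower. The part of either list was not tested.

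Blvra had 338.5 and 324.8 TPM in WT and 239.2 and 234.8 TPM in DKO chimera libraries, for a log2 fold change of -0.48 ± 0.09 (SE; adjusted p = 0.00328 by limma) that passed under all 9 alternatives (0.00102 to 0.0278). Blvra thus fell in both alveolar settings. On the deposited scale the difference between the settings was 0.01 ± 0.13, which did not pass (adjusted p = 0.981 by limma). Rescaled, Blvra fell by -0.23 at steady state and -0.49 in the chimera, and the difference was -0.27 ± 0.10 (adjusted p = 0.1 by limma). The authors' deposited table gave -0.23 at steady state (adjusted p = 0.0995) and -0.50 in the chimera (adjusted p = 1.61e-07). Tfrc had 2.954 and 2.776 TPM in WT and 1.506 and 1.244 TPM in DKO libraries, for a log2 fold change of -0.70 ± 0.19 (adjusted p = 0.0199 by limma). Tfrc groups did not overlap, but with 21 and 54 reads in the DKO libraries the call was lost when any 1 of the 4 libraries was left out (adjusted p from 0.052 to 0.0952; 0.0137 to 0.0952 over 9 alternatives).

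Slc40a1 and the ferritin genes, higher in DKO at steady state, did not pass in the chimeras. Slc40a1 had 2.051 and 1.533 TPM in WT and 1.356 and 0.7705 TPM in DKO chimera libraries, from 13 and 23 reads in DKO, and did not pass (log2 fold change -0.44 ± 0.24, adjusted p = 0.196 by limma). The difference from the steady-state change was itself tested and was -2.0 ± 0.33 (adjusted p = 0.00466 by limma), passing under all 13 alternatives (0.00192 to 0.0301). Sftpc was also lower in DKO, with 71 and 50.7 TPM in WT and 26.8 and 14.1 TPM in DKO chimera libraries. Of the 7 epithelial genes, 0 were higher and 5 lower in both DKO libraries than in both WT libraries, where 31.9% of all features were higher and 30.6% lower in this way. The epithelial list summed to 195 to 234 TPM in WT and 80.5 to 103 TPM in DKO. Per 100 TPM of Sftpc the WT chimera libraries had 2.89 and 3.02 TPM of Slc40a1 and the DKO ones had 5.06 and 5.46, higher in DKO, while Slc40a1 itself was lower in each DKO library than in each WT library. Cyp2f2 had 1.44 and 1.28 TPM in WT and 0.581 and 0.747 TPM in DKO chimera libraries. Relative to Cyp2f2, Slc40a1 overlapped between the genotypes in the chimera too. The part of epithelial RNA was not tested here either.

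Ftl1 had 6262 and 6306 TPM in WT and 7088 and 7007 TPM in DKO chimera libraries, without overlap (log2 fold change 0.17 ± 0.07, adjusted p = 0.119 by limma; 0.0419 in the authors' deposited table). Its change differed from the steady-state one by -0.42 ± 0.10 (adjusted p = 0.0187 by limma; 0.0125 to 0.0921 over 13 alternatives). The Ftl1 difference was lost when WT steady-state replicate 1 or 2, DKO steady-state replicate 2 or WT chimera replicate 1 was left out, without the filter on low values and with only the libraries compared. Fth1 had 13218 and 14467 TPM in WT and 13827 and 14587 TPM in DKO libraries, with overlap (0.04 ± 0.11, adjusted p = 0.838 by limma). Ireb2 changed by 0.14 ± 0.11 in the chimeras (11.98 and 12.64 against 14.26 and 13 TPM), a difference of 0.60 ± 0.15 from steady state (adjusted p = 0.0239 by limma; 0.00548 to 0.0866 over 13 alternatives). The Ireb2 difference was lost after rescaling (0.34, adjusted p = 0.0866), with a replicate block (adjusted p = 0.0528), with only the libraries compared (adjusted p = 0.0653) and without WT steady-state replicate 1 or 2, DKO steady-state replicate 2, WT chimera replicate 1 or DKO chimera replicate 1. In all, 3 of the 10 genes differed in their change between the settings, 1 higher and 2 lower in the chimera, where 24.4% of all features did (19.9% higher and 4.52% lower). After rescaling, 0 were higher and 3 lower, with Ireb2 lost and Blvrb passing (-0.58, adjusted p = 0.0422). Hmox1, Blvrb and Aco1 did not pass between the chimera genotypes, at 403.7 and 495 against 409.2 and 422.3 TPM, 138.8 and 140.6 against 113.3 and 126.3 TPM, and 93.73 and 82.91 against 83.32 and 74.17 TPM.

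WT cells of the chimeras also differed from WT cells at steady state, in 5 of the 10 genes, 1 higher and 4 lower in the chimera, where 41.0% of all features passed (8.06% higher and 32.9% lower). After rescaling, 2 were higher and 3 lower. The setting and the library series cannot be told apart. Slc11a1 was lower by a log2 difference of -1.74 ± 0.32 (SE; adjusted p = 0.00234 by limma) and Ireb2 by -0.49 ± 0.11 (adjusted p = 0.00583). Ftl1 was higher by 0.36 ± 0.07 (adjusted p = 0.00378 by limma). Slc40a1 was lower by -0.83 ± 0.24 (adjusted p = 0.019 by limma; 0.024 to 0.112 over 9 alternatives), a call lost without WT steady-state replicate 2 or WT chimera replicate 2. Hmox1 was lower by -0.40 ± 0.13 (adjusted p = 0.029 by limma) and by -0.17 after rescaling (adjusted p = 0.367; 0.0108 to 0.367 over 9 alternatives), and that call was also lost without WT steady-state replicate 2 or WT chimera replicate 1.

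**Figure D4:**
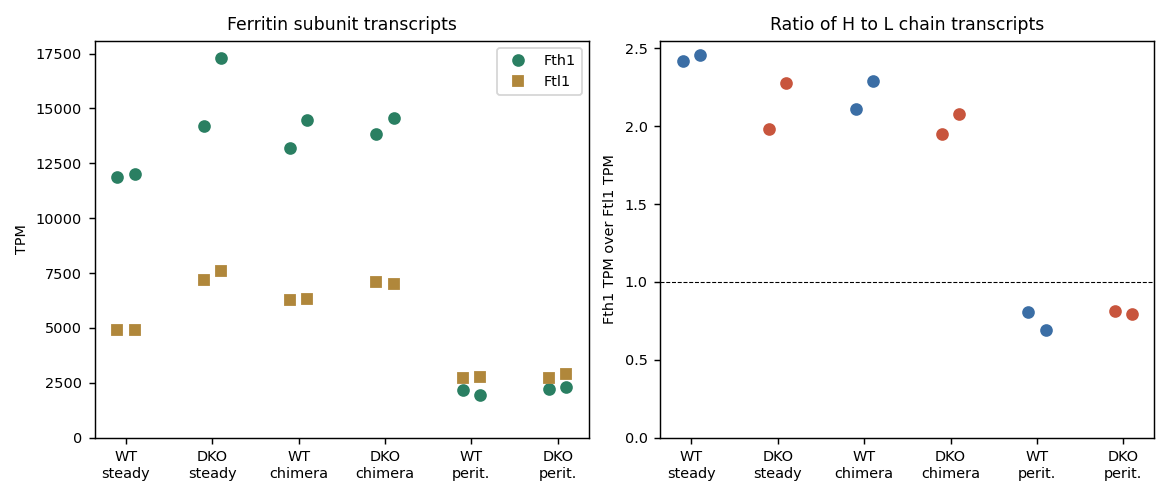
Left, TPM of Fth1 (circles) and Ftl1 (squares) in the 12 libraries, from 0. Right, Fth1 TPM over Ftl1 TPM with a dashed line at 1, WT in blue and DKO in red (perit. is peritoneal). The ratio lies between 1.95 and 2.46 in alveolar libraries and between 0.691 and 0.814 in peritoneal ones.

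In peritoneal macrophages 1 of the 10 genes passed, as higher in DKO, where 22.9% of all features passed (6.80% higher and 16.1% lower). At an unadjusted p under 0.05, 2 genes were higher and 0 lower, where 9.78% of all features were higher and 25.3% lower. By the authors' deposited table, 7 were higher and 0 lower of the 9 with an adjusted p, where 17.1% of all features were higher and 14.8% lower. The 7 were Slc11a1, Hmox1, Fth1, Ftl1, Blvra, Blvrb and Aco1. Hmox1 had 335.5 and 307.4 TPM in WT and 417.6 and 437.8 TPM in DKO libraries, without overlap, for a log2 fold change of 0.41 ± 0.13 (SE; adjusted p = 0.0408 by limma). That call was lost without the filter on low values (adjusted p = 0.0835) and when any 1 of the 4 libraries was left out (adjusted p from 0.0904 to 0.218; 0.0161 to 0.218 over 9 alternatives), and the authors' deposited table gave 0.52 with an adjusted p of 1.17e-14. Blvrb had 429.5 and 398.6 TPM in WT and 489.7 and 525.1 TPM in DKO libraries, without overlap (0.29 ± 0.10, adjusted p = 0.0688 by limma). Rescaled, Blvrb was 0.44 with an adjusted p of 0.0291, and the authors' deposited table gave 0.40 with an adjusted p of 4.64e-10. Slc11a1 had 683.2 and 642.2 TPM in WT and 831.5 and 891.7 TPM in DKO libraries, also without overlap. Its log2 fold change was 0.38 ± 0.32 (adjusted p = 0.452 by limma), and 0.49 in the authors' deposited table (adjusted p = 2.39e-20). Its SE is shared with alveolar libraries whose Slc11a1 values are far more spread, and with only the peritoneal libraries the adjusted p was 0.0425 (0.0425 to 0.707 over 9 alternatives).

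Ferritin did not pass by limma between peritoneal genotypes, with Fth1 at 2188 and 1923 against 2217 and 2305 TPM and Ftl1 at 2713 and 2783 against 2722 and 2915 TPM. In the authors' deposited table both were higher, Fth1 by 0.25 (adjusted p = 0.0139) and Ftl1 by 0.15 (adjusted p = 0.0033). Ferritin made up 0.49% and 0.471% of all TPM in WT and 0.494% and 0.522% in DKO peritoneal libraries. Tfrc had 2.628 and 2.917 against 1.963 and 3.225 TPM and Ireb2 11.35 and 10.93 against 9.967 and 11.23 TPM. Aco1 had 42.42 and 43.35 against 42.81 and 48.25 TPM and Blvra 104.1 and 108.1 against 107.7 and 115.1 TPM. None of these passed by limma. In the authors' deposited table Aco1 was higher by 0.20 (adjusted p = 0.0192) and Blvra by 0.18 (adjusted p = 0.0216). Tfrc and Ireb2 did not pass there (adjusted p = 0.981 and 0.771). Slc40a1 had 1 read in each DKO peritoneal library and 3 reads over both WT ones, so that a genotype difference was not detectable at this depth (ratio of read shares 0.727, exact 95% counting interval 0.0607 to 6.35). Slc40a1 passed the filter on low values only through the alveolar libraries.

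The test of the genotype change between the tissues passed in 6 of the 10 genes, 3 with a higher and 3 with a lower change in peritoneal cells, where 28.3% of all features differed (17.3% higher and 11.0% lower), and in the same 6 after rescaling. Slc11a1 differed by -2.37 ± 0.45 (SE; adjusted p = 0.00406 by limma), and Ftl1 by -0.55 ± 0.10 (adjusted p = 0.00331), with the DKO increase larger in steady-state alveolar cells. Slc40a1 is among the 6 at -1.57 ± 0.33 (adjusted p = 0.00702), but with 1 or 2 reads in each peritoneal library that value restates its alveolar change, and no difference between tissues is read from it. Hmox1 differed by 0.83 ± 0.18 (adjusted p = 0.0074 by limma), Blvra by 0.56 ± 0.13 (adjusted p = 0.0095) and Aco1 by 0.56 ± 0.15 (adjusted p = 0.0177; 0.00676 to 0.0708 over 13 alternatives). The first 2 passed under all 13 alternatives, as did Slc11a1 and Ftl1. The Aco1 difference was lost without WT steady-state replicate 2, DKO steady-state replicate 2, WT peritoneal replicate 1 or 2, or DKO peritoneal replicate 2.

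Other genes of iron and heme metabolism came from a list of 59, of which 56 had a feature and 45 were abundant enough to test. At steady state 7 were higher and 18 lower in DKO alveolar cells (55.6% against 51.5% of all features). After rescaling 13 were higher and 9 lower, where 20.4% of all features were higher and 17.9% lower. On the deposited scale the median log2 fold change of the listed genes was -0.14, against -0.22 for all features. Spic, a transcription factor needed for iron-recycling macrophages of the spleen, rose from 0.289 and 0.22 to 9.8 and 5.76 TPM (2.77 ± 0.21, adjusted p = 7.91e-06 by limma). Spic reached 1 TPM only in DKO alveolar libraries and so passed the filter on low values only through the groups where it is high. Steap3, a ferrireductase of the transferrin cycle, rose from 8.02 and 7.19 to 28.1 and 26 TPM (1.70 ± 0.10, adjusted p = 1.49e-06 by limma). Epas1, the hypoxia factor HIF-2 alpha, rose from 17.8 and 19.6 to 70.9 and 76.5 TPM (1.93 ± 0.18, adjusted p = 3.11e-05 by limma). All 3 kept every DKO library above every WT library.

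The carrier genes Hp, for hemoglobin-binding haptoglobin, and Lcn2, for the siderophore-binding lipocalin 2, also rose at steady state. Hp went from 2.99 and 3.21 to 11.7 and 28 TPM (2.22 ± 0.33, adjusted p = 0.000516 by limma) and Lcn2 from 0.572 and 0.653 to 3.4 and 5.04 TPM (1.68 ± 0.28, adjusted p = 0.00107 by limma). Both are also known as genes of neutrophils and epithelium, whose lists are given above, and their part was not tested. Alas1, the rate-limiting enzyme of heme synthesis outside red cells, rose from 324 and 330 to 417 and 565 TPM (0.57 ± 0.12, adjusted p = 0.00346 by limma). The Alas1 call was lost with only the libraries compared. Of 13 listed red cell genes 7 had a feature, and 1 of these reached 1 TPM in any library. Their summed level was at most 1.7 TPM, and the globin features Hbb-bs and Hbb-b1 were at 0 in all libraries. The other globin genes listed had no feature, so these values cannot show that red cell RNA was absent.

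Among the genes that fell at steady state, Slc39a14, a zinc and iron importer, had 44.9 and 45 TPM in WT and 18 and 18.4 TPM in DKO libraries (-1.26 ± 0.11, adjusted p = 1.8e-05 by limma). The related importer Slc39a8 fell from 1.65 and 1.56 to 0.505 and 0.487 TPM (-0.80 ± 0.13). The porphyrin transporter gene Abcb6 fell from 13.4 and 11.1 to 7.15 and 6.47 TPM (-0.76 ± 0.12) and Nfe2l2, for the antioxidant response factor Nrf2, from 267 and 273 to 189 and 148 TPM (-0.69 ± 0.11). Of 10 genes for mitochondrial iron and iron-sulfur clusters, 0 rose and 5 fell, a share near that of all features (39.4% lower), and after rescaling 1 was higher and 3 lower (20.4% and 17.9% of all features). Those that fell included Lyrm4 (64.5 and 63.6 to 41.9 and 29.9 TPM, -0.84 ± 0.18) and the mitoferrin gene Slc25a28 (53 and 58.6 to 36 and 32.3 TPM, -0.69 ± 0.11). Their adjusted p values by limma ran from 0.000684 for Nfe2l2 to 0.00362 for Lyrm4, and each named gene also passed as lower after rescaling.

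In the chimeras 3 listed genes were higher and 14 lower in DKO (37.8% against 27.3% of all features; median -0.06 against 0.01). Spic rose again, from 0.31 and 0.251 to 1.39 and 1.7 TPM (0.99 ± 0.21, adjusted p = 0.00755 by limma). These values are near the filter of 1 TPM, which Spic passed only through DKO alveolar libraries. Lrp1, a receptor for hemopexin-bound heme among many ligands, rose from 461 and 490 to 881 and 794 TPM (0.82 ± 0.08, adjusted p = 7.29e-05 by limma), and the mitoferrin gene Slc25a37 from 8.67 and 8.66 to 11.8 and 14.7 TPM (0.55 ± 0.12, adjusted p = 0.00885 by limma). The Slc25a37 call was lost without DKO replicate 2 and with only the libraries compared. Steap3 fell in this setting, from 29.8 and 28.1 to 20.4 and 16.6 TPM (-0.62 ± 0.10, adjusted p = 0.00187 by limma), the opposite of its direction at steady state. The Steap3 call in the chimera was lost with only the libraries compared. Its difference between the settings was -2.33 ± 0.15 (adjusted p = 3.59e-05 by limma).

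In the chimeras 1 of the 10 genes for mitochondrial iron and iron-sulfur clusters was higher and 5 were lower, where 13.7% of all features were higher and 13.6% lower, and the counts were the same after rescaling (14.3% and 15.1% of all features). The cochaperone gene Hscb fell from 29.8 and 34.5 to 18 and 19.3 TPM (-0.75 ± 0.12, adjusted p = 0.00182 by limma) and Abcb6 from 12.7 and 11.3 to 7.09 and 5.91 TPM (-0.79 ± 0.12, adjusted p = 0.00133 by limma). Lyrm4 fell from 50.2 and 67.4 to 27.7 and 36.2 TPM (-0.86 ± 0.18, adjusted p = 0.00641 by limma). The Lyrm4 call was lost without WT replicate 2, without DKO replicate 1 and with only the libraries compared. Cd163, the haptoglobin-hemoglobin receptor, went from 1.05 and 1.13 to 0 and 0.176 TPM (-0.95 ± 0.30, adjusted p = 0.0424 by limma), a call lost when any 1 of the 4 libraries was left out, with a replicate block and without the filter on low values.

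In peritoneal cells 4 listed genes were higher and 11 lower in DKO (33.3% against 22.9% of all features; median -0.08 against -0.09), and after rescaling 6 were higher and 5 lower, where 11.9% of all features were higher and 7.87% lower. Cp, for the ferroxidase ceruloplasmin that works with ferroportin, rose from 14.6 and 13.2 to 32.8 and 29.9 TPM (1.12 ± 0.13, adjusted p = 0.000361 by limma). Bach1, a heme-sensing repressor of Hmox1, rose from 85.5 and 82.2 to 127 and 135 TPM (0.64 ± 0.14, adjusted p = 0.00937 by limma), and Nfe2l2, an activator of Hmox1, from 98.5 and 85.3 to 124 and 133 TPM (0.48 ± 0.11, adjusted p = 0.0106 by limma). Hfe, a partner of transferrin receptors, rose from 73.6 and 60.6 to 90.5 and 93.2 TPM (0.45 ± 0.09, adjusted p = 0.00785 by limma). The Bach1, Nfe2l2 and Hfe calls were lost without WT replicate 2 and without DKO replicate 2. With only the libraries compared, the Nfe2l2 and Hfe calls were also lost.

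On the lower side in peritoneal cells, Abcg2, for a porphyrin and heme exporter, fell from 3.19 and 3.93 to 1.64 and 0.805 TPM (-1.06 ± 0.18, adjusted p = 0.00331 by limma) and the glutaredoxin gene Glrx5 from 104 and 104 to 76.3 and 71.3 TPM (-0.49 ± 0.08, adjusted p = 0.00292 by limma). Lcn2 fell from 8.68 and 12.2 to 5.33 and 2.91 TPM (-1.18 ± 0.28, adjusted p = 0.0153 by limma), a call lost without WT replicate 2 or DKO replicate 2. With only the libraries compared, the Abcg2 and Lcn2 calls were lost. Hp, Alad and Slc39a8 passed at log2 fold changes of -1.05 ± 0.33, -0.51 ± 0.14 and -0.46 ± 0.13 (adjusted p = 0.0474, 0.0279 and 0.0313 by limma). None of the 3 passed after rescaling (-0.90, -0.40 and -0.37; adjusted p = 0.111, 0.094 and 0.0705) or when any 1 of the 4 libraries was left out. Hmox2, the constitutive heme oxygenase, lay between 107 and 128 TPM over the 12 libraries, a narrower span than that of Hmox1.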

How the data were processed

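RNA-seq of 12 libraries (6 groups of 2) was analysed, and 6 ChIP-seq samples were not analysed here. The authors deposited TPM per feature in 1 table per population, beside their own log2 fold changes (DKO over WT), p-values and a signal column of mean normalized counts. Per the submitters' processing notes, DESeq2 1.2.10, HTSeq 0.5.3, Bowtie2, Bowtie 1.0.0 and TopHat 1.4.1 were used, with GRCm38.p3 and mm9 as builds and no step assigned to any. Strandedness of the counting is not given in the sources used here. TPM keeps no depth, so reads per library were recovered by combining TPM with the deposited mean normalized counts (100.0% of values within 0.01 of whole). Intervals cover counting error only.

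log2(TPM + 1) was fitted with limma 3.58.1 in R 4.3.3 (6 group means, 12 libraries, 6 residual degrees of freedom, intensity trend), for features with at least 1 TPM in at least 2 libraries, and p-values were adjusted over all 12303. The fit was tested on simulated data. Alternatives were a pseudocount of 0.1, no filter (19454 features), rescaling by the median of ratios, only the libraries compared, a replicate block, and each library left out, where the lone library left in a group is assumed to vary like the other groups.

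The members and lists were chosen with earlier results of these data known. All members are named. Of the pathway list, up to 6 highest and 6 lowest passing genes per DKO comparison are named, except 1 that is not reported here. Likeness is the Pearson r over 6 group means for the 3 members with the largest changes. Marker lists covered red cells, neutrophils, lymphocytes (summed at most 7.16 TPM), lung epithelium, monocytes and interstitial macrophages (712 to 1837 TPM) and both macrophage types. Where nothing else is said, p-values measure the spread between these libraries.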

Additional observations from a re-analysis of the deposited data

Results flagged for a closer look

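For 9 values the DKO over WT change differed between settings or tissues by a test of the difference itself (limma, log2 scale, adjusted over 12303 features). Between the chimera and steady state, Slc40a1 differed by -2.0, Ftl1 by -0.42 and Ireb2 by 0.60. Slc40a1 was higher in both DKO libraries at steady state and lower in both in the chimera, as were Sftpc and Scgb1a1 (Cdh1 was lower in DKO in both settings), and the part of epithelial RNA was not tested. Between peritoneal and steady-state alveolar cells, Slc11a1 differed by -2.37, Hmox1 by 0.83, Ftl1 by -0.55, Blvra by 0.56 and Aco1 by 0.56. Slc40a1 was called at -1.57, but its 1 or 2 reads in each peritoneal library allow no measure of a change there, so that this value only restates the alveolar one. Hmox1 was lower in both DKO libraries of one tissue and higher in both of the other. With 2 libraries a group, no group was large enough to look for a library far from the others.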

How the results depend on the processing

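Slc11a1 in both alveolar comparisons, Slc40a1 and Ftl1 at steady state and Blvra in both alveolar comparisons kept direction and call under all 9 alternatives, as did Slc40a1 in the difference between settings and Slc11a1, Hmox1, Ftl1 and Blvra in the tissue difference under all 13. Of the 22 member values that changed sign none had passed the test. With only the libraries of the groups compared, fewer libraries gave 5 members and 4069 features at steady state, 7 pathway genes and 1608 features in the chimera, 2 members in peritoneal cells, and 1 member and 1206 features in the difference between settings. In peritoneal cells 0 members passed by limma without the filter and 2 after rescaling, against 2 at an unadjusted p under 0.05 with the filter and 7 in the authors' deposited table; the cause was not tested.

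With 1 library left out, members passing numbered 6 to 9 at steady state, 2 to 2 in the chimera, 0 to 0 in peritoneal cells, 9 to 9 between tissues, 3 to 5 between WT settings, 1 to 7 in the difference between settings and 5 to 7 in the difference between tissues. The 7 came without DKO steady-state replicate 1, and 1 came without either WT steady-state replicate or WT chimera replicate 1. Pathway genes passing were 20 to 27, 10 to 14, 5 to 10, 27 to 29, 6 to 9, 6 to 16 and 12 to 16 in the same order. All features passing were 4511 to 6424, 2000 to 3178, 1236 to 1644, 7363 to 7492, 2836 to 3786, 1040 to 4185 and 2134 to 4447.

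Sign changes after rescaling were peritoneal Tfrc (0.01) and Ireb2 (0.07), WT chimera over steady state Blvra (0.12) and Aco1 (0.18), and the difference between settings of Blvra (-0.27). With 1 library left out, log2 values crossing 0 ran from -0.07 to 0.25 for Blvrb at steady state, from -0.25 to 0.04 for Hmox1 and from -0.03 to 0.10 for Fth1 (also -7.5e-05) in the chimera, from -0.35 to 0.16 for Tfrc, -0.01 to 0.09 for Ftl1, -0.15 to 0.01 for Ireb2 and -0.0024 to 0.17 for Aco1 in peritoneal cells, from -0.22 to 0.10 for Tfrc between tissues, from -0.06 to 0.26 for Tfrc and -0.14 to 0.03 for Aco1 between WT settings, and from -0.25 to 0.07 for Tfrc and -0.14 to 0.15 for Blvra in the difference between settings (also 0.02 for Tfrc and -0.01 and -0.02 for Blvra).

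Replicate numbers are shared by the titles, but same-numbered libraries deviated together with r of -0.04, 0.13 and -0.06 in the 3 populations, over 2 pairs each. With a replicate block, 9, 3 and 1 members and 23, 15 and 13 pathway genes passed in the 3 DKO comparisons, and Ireb2 in the difference between settings had an adjusted p of 0.0528. Rescaling turned the split of all features from 1495 higher and 4842 lower to 2513 and 2206 at steady state and from 837 and 1976 to 1464 and 968 in peritoneal cells. Between WT tissues it went from 5081 and 3287 to 4207 and 4256, between WT settings from 992 and 4047 to 2466 and 2194, in the difference between settings from 2444 and 556 to 835 and 1250, and in the difference between tissues from 2129 and 1351 to 1668 and 1702. Slc40a1 and Tfrc rest on at most 456 and 166 reads a library, and Slc40a1 in peritoneal cells on 1 or 2.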

Other observations

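Between WT tissues, 18 pathway genes were higher and 14 lower in alveolar cells (71.1% of 45 tested, against 68.0% of all features), and after rescaling 15 were higher and 16 lower. Ncoa4, the receptor that delivers ferritin for degradation, was higher in alveolar cells by a log2 fold change of 3.64 ± 0.09 (SE; adjusted p = 1.74e-10 by limma), Alas1 by 2.92 ± 0.12 (adjusted p = 8.46e-09), and Slc48a1, a heme transporter of the phagolysosome, by 1.38 ± 0.08 (adjusted p = 9.01e-08). Cd163 was lower by -4.65 ± 0.30 (adjusted p = 2.86e-07 by limma), Cp by -3.71 ± 0.13 (adjusted p = 1.95e-09) and Steap3 by -3.10 ± 0.10 (adjusted p = 1.72e-09). Cp was at most 0.274 TPM in alveolar libraries and passed the filter on low values only through the peritoneal ones, where it is high. Fbxl5, the iron-sensing subunit of the ligase that degrades iron regulatory proteins, was higher by 1.48 ± 0.11 (adjusted p = 9.59e-07 by limma). These 7 genes were chosen after their values were seen.

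Of the 2 related receptor genes, Tfr2 stayed between 0 and 0.602 TPM in all 12 libraries, and the ferritin relative Fthl17 was listed at 0 in all of them.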
